A study of Rattus norvegicus with 4 samples.

Results

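Acta1 and Actc1 encode the sarcomeric α-actins of striated muscle. These are the proteins that build the thin filament on which myosin pulls. Actc1, cardiac α-actin, is the main sarcomeric actin of the heart. Acta1, skeletal α-actin, is the main one of skeletal muscle, and in rodents it is also made in the fetal and newborn heart, declines in the adult ventricle and returns under hypertrophic stimulation. For that reason Acta1 is read, beside the natriuretic peptides and β-myosin, as a gene of the fetal programme of hypertrophy.

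The members were chosen by identifier, ENSRNOG00000017786 for Acta1 and ENSRNOG00000008536 for Actc1, with a required mean of at least 20 RPKM over the 4 libraries. RPKM is the number of reads scaled by the length of the gene model and by the depth of the library, so it allows levels to be compared between genes. Both members were listed in every library among 26406 features and met the rule, with means of 1665 RPKM for Acta1 and 12725 RPKM for Actc1. Neither the deposited files nor the reference table pairs these identifiers with symbols, so the names are those given with the choice of members. The gene models behind the RPKM values were 1453 bp long for Acta1 and 1489 bp long for Actc1.

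RNA came from ventricular myocytes of 2-day-old Sprague Dawley rat hearts in primary culture. The 4 groups were Chaer siRNA with phenylephrine, control siRNA with phenylephrine, Chaer siRNA alone and control siRNA alone. Cells were transfected for 6 h, phenylephrine was used at 50 µM, and cells were collected after 48 h. Phenylephrine stimulates α1-adrenergic receptors, which enlarges cultured myocytes, and Chaer is a long noncoding RNA of the heart whose part in that response the series addressed.

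Each group was a single library, and the labels do not say whether the cultures were separate. The libraries held 33944988 to 39155363 reads in listed features. No value below has an error from replicate cultures, no p-value is given, and all 95% intervals cover counting error only. Features carry identifiers that could not be paired with symbols, so Chaer could not be looked up and its knockdown was not checked here. The cell type markers could not be looked up without symbols, and the labelled cell type was therefore not checked either. In bulk RNA, fewer cells of a type and less RNA per cell cannot be told apart.

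The sequence before each gene's start is shown because both genes were higher with phenylephrine and because work on cultured rat myocytes has tied the α1-adrenergic response of the skeletal actin promoter to its CArG, MCAT and Sp1 elements. The CArG box is bound by serum response factor, MCAT by TEAD factors and the GC box by Sp1. Sequences are from RefSeq on assembly GRCr8, on the minus strand, written 5′ to 3′. Capitals mark the motifs found.
Acta1, chr19:68784195-68784344, the 150 bases before the start: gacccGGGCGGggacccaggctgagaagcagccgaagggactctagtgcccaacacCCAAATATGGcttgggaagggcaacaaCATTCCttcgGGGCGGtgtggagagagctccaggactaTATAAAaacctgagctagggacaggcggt
Actc1, chr3:121271816-121271965, 138 bases before the start and the first 12 from it: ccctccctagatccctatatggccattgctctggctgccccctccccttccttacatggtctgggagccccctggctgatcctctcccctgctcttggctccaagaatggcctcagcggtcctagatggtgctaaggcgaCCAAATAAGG

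Motifs were searched on both strands in 300 bases per gene, 250 before and 50 after the annotated start. The motifs were the CArG box (CC, only A or T, GG), CATTCC for MCAT, GGGCGG for Sp1 and TATAAA for the TATA box. Only exact matches were counted, and none of them overlapped. Stretches that differ from a motif by a single base were not searched for and are left in lower case above. The Acta1 window held 1 CArG box with its first base at -94 from the start, 1 CATTCC at -67, GGGCGG at -145 and at -57, and 1 TATAAA at -29. The Actc1 window held 1 CArG box, which began at base 3 of the annotated transcript, and no match to the other motifs. Sequence more than 50 bases after the annotated start was not searched, so the missing matches hold for this window and for exact matches only. Whether that start is the one used in these myocytes was not checked. Of 33469 rat windows of this length, 1.64% held a CArG box, 14.2% CATTCC, 33.1% GGGCGG and 14.2% TATAAA. A match is a run of letters and not a measured binding site.

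Both actins were higher with phenylephrine under either siRNA, and Acta1 by the larger factor. Acta1 was 4.51-fold higher under Chaer siRNA and 5.55-fold higher under control siRNA. Actc1, one of the 9 features with the highest RPKM in every library, was 1.95-fold higher under Chaer siRNA and 2.11-fold higher under control siRNA. The skeletal form thereby made up 12.3% to 15.6% of the pair with phenylephrine, against 5.74% to 6.56% without it. With Chaer siRNA, Acta1 differed by -26.5% with phenylephrine and by -9.41% without it, and Actc1 differed by less than 5% in either condition.

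Acta1 stood at 2356 RPKM (95% interval 2344 to 2368) in the Chaer siRNA library with phenylephrine and at 3205 RPKM (3189 to 3220) in the control siRNA library with phenylephrine. Without phenylephrine it stood at 523 RPKM (517 to 529) with Chaer siRNA and at 577 RPKM (571 to 584) with control siRNA. The order of the 4 libraries was thus control siRNA with phenylephrine, Chaer siRNA with phenylephrine, control siRNA alone and Chaer siRNA alone. No neighbouring pair had overlapping counting intervals, but these are narrow at such read counts and leave out variation between cultures. They do not settle the order of the siRNAs. Behind these levels were 139782 reads and 164435 reads with phenylephrine under Chaer and control siRNA, against 30682 reads and 31016 reads without it. Among all features of a library, Acta1 ranked 27th by RPKM with Chaer siRNA plus phenylephrine and 20th with control siRNA plus phenylephrine. It ranked 108th with Chaer siRNA alone and 79th with control siRNA alone.

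Actc1 stood at 16782 RPKM (16750 to 16815) in the Chaer siRNA library with phenylephrine and at 17307 RPKM (17272 to 17343) in the control siRNA library with phenylephrine. Without phenylephrine it stood at 8590.1 RPKM (8567 to 8614) with Chaer siRNA and at 8221 RPKM (8197 to 8245) with control siRNA. Both treated libraries were above both untreated ones, and the order of the siRNAs was not the same with and without phenylephrine. The read counts were 1020429 and 910077 with phenylephrine under Chaer and control siRNA, against 516667 and 452785 without it. By RPKM it ranked 2nd and 3rd in the libraries with phenylephrine under Chaer and control siRNA, against 7th and 9th in those without.

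**Figure D1:**
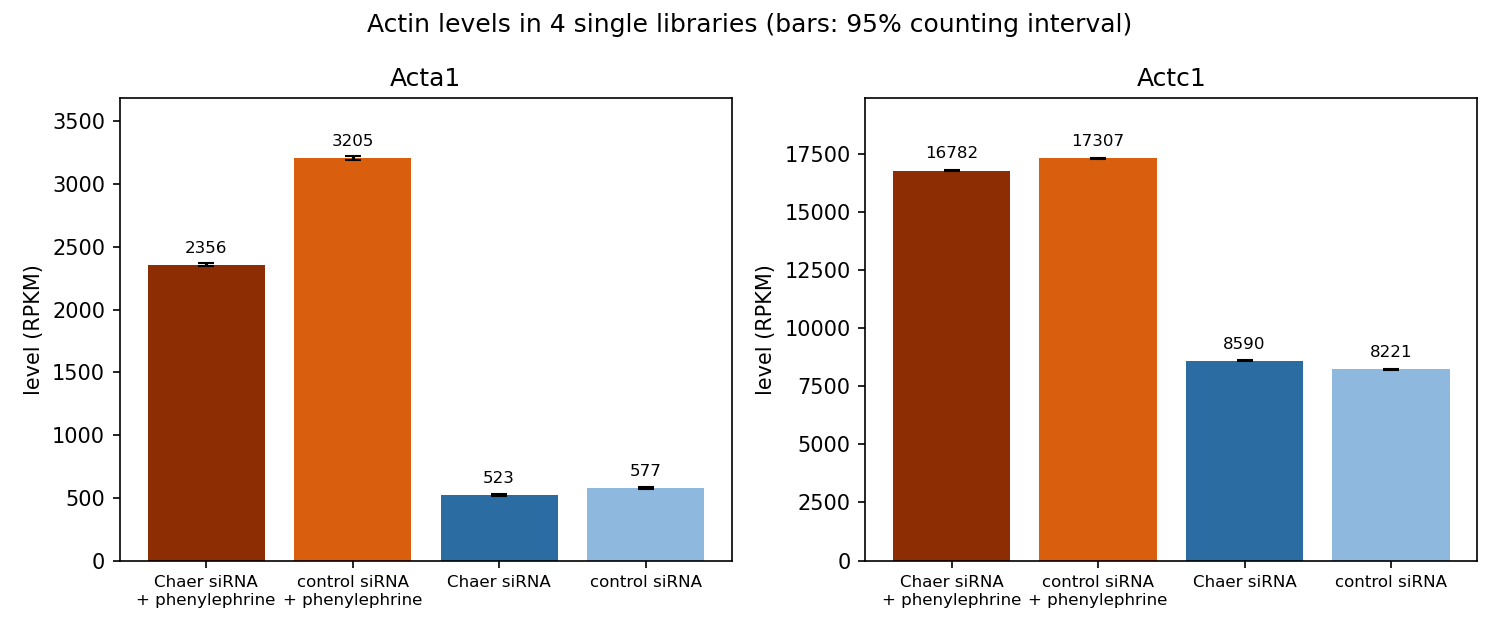
Level of Acta1 (left panel) and Actc1 (right panel) in RPKM, on separate axes that start at 0, 1 bar per library. Error bars are 95% counting intervals and there are no replicates. Acta1 is at 2356 and 3205 RPKM in the libraries with phenylephrine, against 523 and 577 RPKM without, and Actc1 at 16782 and 17307 RPKM, against 8590.1 and 8221 RPKM.

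Phenylephrine under Chaer siRNA addressed the response of myocytes given the siRNA against Chaer. The Acta1 ratio was 4.51 (4.45 to 4.56), which is 2.17 on the log2 scale of RPKM + 1. It was the 12th highest among the 12226 features averaging 1 RPKM or more and the 8th highest among the 4041 averaging 20 RPKM or more. The Actc1 ratio was 1.95 (1.95 to 1.96), or 0.97 on the same log2 scale, and ranked 151st of the 12226. Acta1 therefore passed a rule of at least 2-fold higher, as did 1.1% of features, and Actc1 was just short of it. With TMM scaling, which sets the libraries to a common level over most genes, the Actc1 log2 ratio was 1.08, and with median-ratio scaling it was 1.07. Both are past 2-fold, so that call depended on how the libraries were scaled. Under those scalings the median of all features, -0.10 as deposited, was 0.00 and -0.01. Relative to the median of all features, the Actc1 log2 ratio was 1.06 as deposited and 1.08 under either of these scalings.

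Phenylephrine under control siRNA, the response with no siRNA against Chaer, gave larger ratios for both actins. The Acta1 ratio was 5.55 (5.49 to 5.62), or 2.47 on the log2 scale of RPKM + 1, the 6th highest of the 12226 features and the 5th highest of the 4041 more abundant ones. The Actc1 ratio was 2.11 (2.10 to 2.11), or 1.07 on that scale, and ranked 120th. Both members thus passed the rule of at least 2-fold higher, which 137 features passed, 1.12% of those compared. The median log2 ratio over all features was -0.07, with an SD of 0.35 across features. Actc1 had the highest ratio of the 5 features with a mean level at least as high as its own, itself included. Of the 34 features at least as abundant as Acta1, again itself included, 2 had a ratio at least as high as that of Acta1. The mean levels include the libraries with phenylephrine, so each set rests partly on the values behind the ratio and lends it no support. That holds for the ranks among the 4041 and the 12226 features too, here and under Chaer siRNA.

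The larger fold did not go with the larger gain in level. With phenylephrine under Chaer siRNA, Acta1 was higher by 1833 RPKM and Actc1 by 8192 RPKM. Under control siRNA the gains were 2628 RPKM for Acta1 and 9087 RPKM for Actc1. Under Chaer siRNA their summed level was 19138 RPKM with phenylephrine, against 9113 RPKM without it, which is 2.10-fold. Under control siRNA the sum was 20512 RPKM with phenylephrine, against 8798 RPKM without it, which is 2.33-fold.

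**Figure D2:**
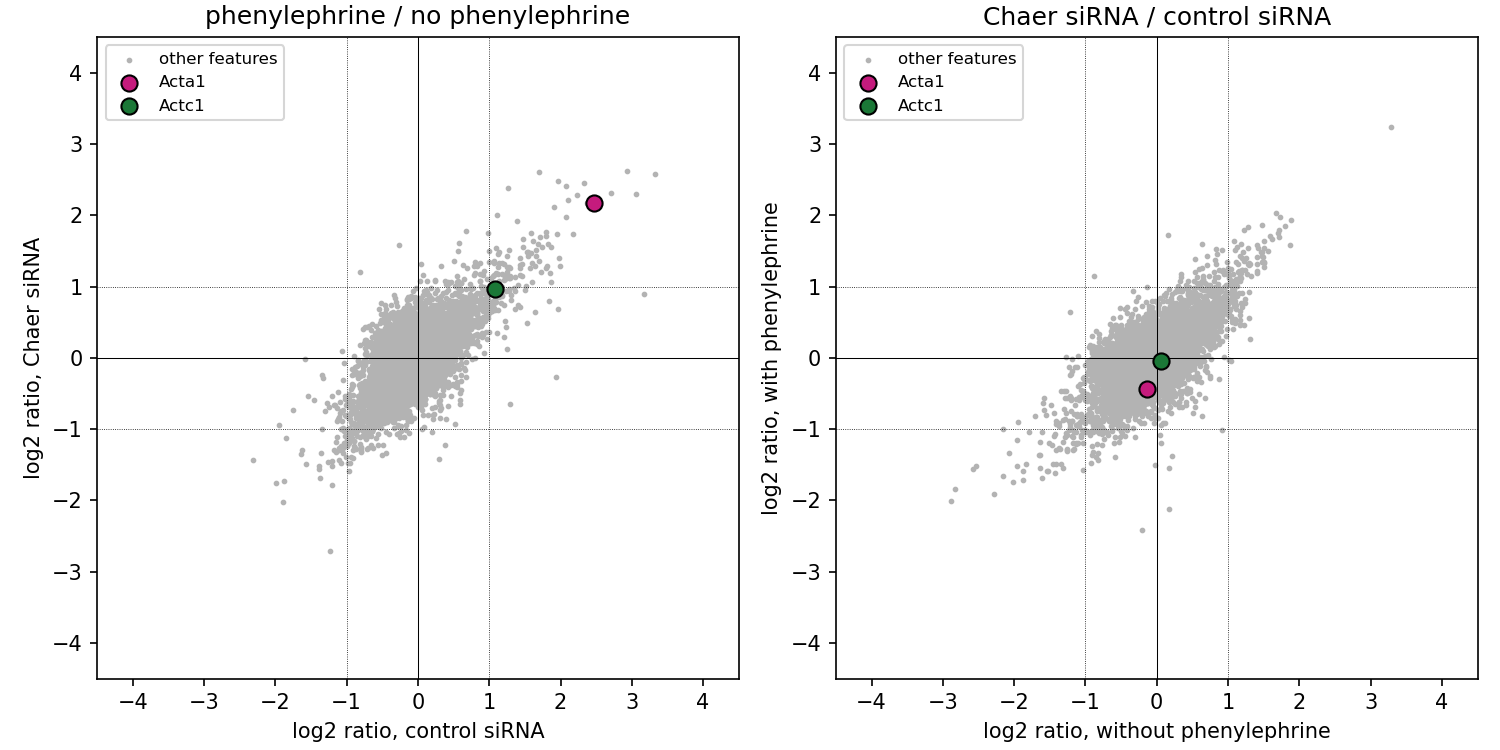
Each grey point is 1 of the 12226 compared features, with its log2 ratios of (RPKM + 1). The left panel plots the phenylephrine ratio under Chaer siRNA (vertical) and control siRNA (horizontal), the right panel the Chaer siRNA ratio with (vertical) and without (horizontal) phenylephrine. Dotted lines mark 2-fold. Acta1 (2.17 with Chaer siRNA and 2.47 with control siRNA) lies at the upper right of the left panel and Actc1 (0.97 and 1.07) near the 2-fold lines, while both lie within the cloud of the right panel.

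The phenylephrine fold was smaller with Chaer siRNA than with control siRNA for both actins. The fold with Chaer siRNA divided by that with control siRNA was 0.812 (0.798 to 0.826) for Acta1 and 0.928 (0.923 to 0.933) for Actc1. On the log2 scale of RPKM + 1 these differences were -0.30 and -0.11. Over all features the median difference was -0.06 with an SD of 0.31, and among the 4041 features averaging 20 RPKM or more the median was -0.13. Of all 12226 features, 15.5% had a lower difference than Acta1 and 43.0% a lower one than Actc1. Neither member reached 2-fold, which 0.54% of features did in either direction.

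Chaer siRNA with phenylephrine addressed how the 2 siRNAs differed in stimulated cells. Acta1 was at 0.735 times its level with control siRNA (0.730 to 0.740), a difference of -849 RPKM. Actc1 was at 0.970 times (0.967 to 0.972). The log2 ratios of RPKM + 1 were -0.44 and -0.04, and 8.17% of features had a lower ratio than Acta1 and 48.0% a lower one than Actc1. Neither passed 2-fold, which 1.85% of features did in either direction. Among all 12226 features, 18.3% lay at least as far from the median ratio as Acta1. The counting interval of Acta1 does not hold 1, but the variation between cultures was not measured, and the ratio lies within the spread of all features.

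Chaer siRNA without phenylephrine, the same contrast in unstimulated cells, gave a smaller difference in Acta1. Acta1 was at 0.906 times its level with control siRNA (0.892 to 0.920) and Actc1 at 1.04 times (1.04 to 1.05). On the log2 scale of RPKM + 1 the ratios were -0.14 and 0.06, and 31.7% and 55.8% of features had a lower ratio. Neither passed 2-fold, which 2.13% of features did in either direction. Of all features compared, 62.0% lay at least as far from the median ratio as Acta1. The comparisons of the siRNAs and of phenylephrine use the same 4 libraries and are not independent of one another.

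The balance of both actins within a library does not depend on the scaling between libraries. Acta1 made up 12.3% of the summed RPKM (12.2% to 12.4%) with Chaer siRNA plus phenylephrine and 15.6% (15.6% to 15.7%) with control siRNA plus phenylephrine. Without phenylephrine it made up 5.74% (5.67% to 5.80%) with Chaer siRNA and 6.56% (6.49% to 6.63%) with control siRNA. Actc1 was thus 7.12 and 5.40 times as abundant per length as Acta1 with phenylephrine under Chaer and control siRNA, against 16.4 and 14.2 times without it. The Acta1 share was higher in both libraries with phenylephrine than in both without, and lower with Chaer siRNA in both conditions.

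Under Chaer siRNA, the level of Acta1 per Actc1 with phenylephrine was 2.31 times that without it (2.28 to 2.34). Under control siRNA it was 2.64 times (2.60 to 2.67). The same ratio with Chaer siRNA was 0.758 times that with control siRNA (0.752 to 0.764) with phenylephrine and 0.867 times (0.853 to 0.881) without it. The siRNA difference in the balance was thus smaller than the phenylephrine difference in each pair of libraries. The coding sequences of both actins are similar, but their identity was not computed here. How reads that match both were counted is not given in the sources used here, so the split of such reads is uncertain. The ratio of the Acta1 level to the Actc1 level ran between 0.0609 and 0.185 across the libraries. The part of shared reads in the Acta1 level was not tested.

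Together the 2 genes took 2.96% of the reads in listed features (2.96% to 2.97%) with Chaer siRNA plus phenylephrine and 3.17% (3.16% to 3.17%) with control siRNA plus phenylephrine. They took 1.41% (1.41% to 1.42%) with Chaer siRNA alone and 1.37% (1.36% to 1.37%) with control siRNA alone. The difference with phenylephrine was 1.55 percentage points under Chaer siRNA and 1.80 percentage points under control siRNA. Actc1 alone took 2.61% and 2.68% of the reads with phenylephrine under Chaer and control siRNA, against 1.33% and 1.28% without it. With both actins left out of the read totals, a setting added after seeing the data, the log2 phenylephrine ratios under control siRNA were 2.49 for Acta1 and 1.09 for Actc1.

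**Figure D3:**
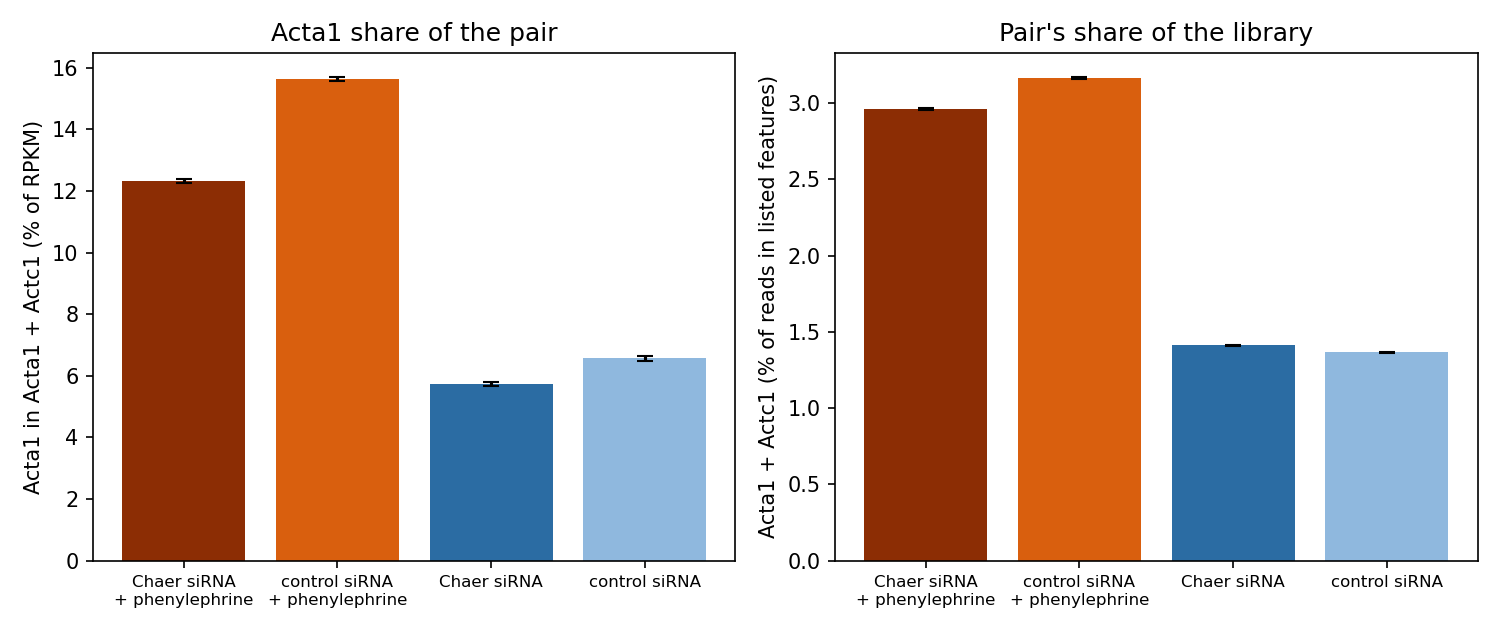
Acta1 as a percentage of the summed RPKM of Acta1 and Actc1 (left panel) and both genes as a percentage of the reads in listed features (right panel), 1 bar per library with 95% counting intervals and axes that start at 0. The Acta1 share is 12.3% and 15.6% with phenylephrine, against 5.74% and 6.56% without. The pair's share of reads is 2.96% and 3.17%, against 1.41% and 1.37%.

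The phenylephrine ratios of both genes kept their direction under each scaling tried. The Acta1 log2 ratio lay between 2.17 and 2.29 under Chaer siRNA and between 2.41 and 2.57 under control siRNA, and was past 2-fold throughout. The Actc1 ratio under control siRNA lay between 1.01 and 1.17. For Chaer siRNA the Acta1 ratio was below 0 under each scaling in both conditions. The Actc1 ratio changed sign, at 0.0056 with phenylephrine under median-ratio scaling and at -0.019 without phenylephrine when the 20 most abundant features were left out of the totals, so it has no settled direction. A change of scaling moves abundant features of a comparison by nearly the same amount. A kept direction therefore says nothing about variation between cultures.

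**Figure D4:**
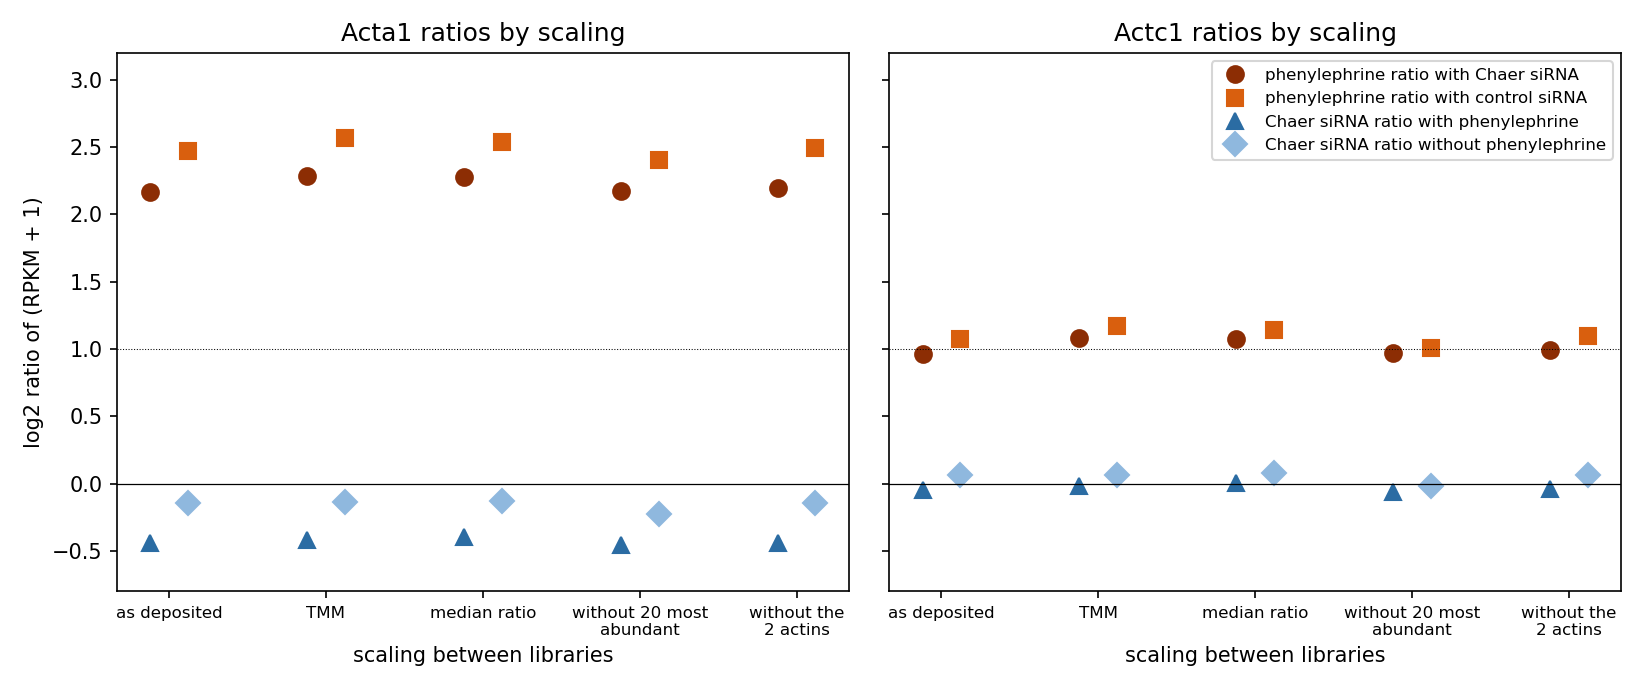
Log2 ratios of (RPKM + 1) of Acta1 (left panel) and Actc1 (right panel) under 5 scalings between libraries, with the solid line at no difference and the dotted line at 2-fold. Acta1 stays past 2-fold for phenylephrine and below 0 for Chaer siRNA, while the Actc1 phenylephrine ratio under Chaer siRNA crosses the 2-fold line and its siRNA ratios lie close to 0.

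The features whose pattern over the 4 libraries was most like that of each actin were found by the distance between log2 values of RPKM + 1, each centred on its own mean, among the other 4040 features averaging 20 RPKM or more. ENSRNOG00000000699 was nearest to Acta1, at a distance of 0.353. Its levels were 29.4 and 49.9 RPKM with phenylephrine under Chaer and control siRNA, against 5.77 and 8.82 RPKM without it. ENSRNOG00000016541 was nearest to Actc1, at a distance of 0.0707, with 37.9 and 40.0 RPKM with phenylephrine under Chaer and control siRNA, against 19.9 and 17.8 RPKM without it. The actins themselves were 1.34 apart. By this distance, which counts the size of the change, Actc1 was the 49th nearest feature to Acta1, and Acta1 the 3316th nearest to Actc1. By Pearson correlation, which does not count it, Actc1 ranked 46th for Acta1 and Acta1 49th for Actc1. The mean behind the 20 RPKM rule includes the libraries with phenylephrine. Both nearest features were below 20 RPKM without it and passed only through the libraries in which they were high. The rule thus favours the pattern being matched, and the match lends no support to it. With 4 libraries, such a match describes these libraries only.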

How the data were processed

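RNA-seq of neonatal rat ventricular myocytes was available as 4 libraries, 1 per group. Libraries were of the stranded TruSeq kind, from total RNA, per the labels' protocols. The submitters' processing notes name TopHat2 and the build rn5. No source used here names the counting tool, annotation, strand setting or filters. The authors deposited, per the file headers, a read count and an RPKM value for each of 26406 features. The read totals behind RPKM, recovered from counts over RPKM as those that make every gene length whole, were 35314303 to 40835172, and 3.88% to 4.29% of them lay outside the listed features.

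Ratios of RPKM were taken between single libraries. The log2 ratio of RPKM + 1 was used for ranks among the 12226 features averaging 1 RPKM or more, and 2-fold was the size rule. Intervals at 95% were exact Poisson for levels, exact binomial for ratios and shares, and normal on log counts for ratios of ratios. They cover counting error only, since each group held 1 library. They treat reads as independent molecules, but the reads carry no molecular identifiers, so the intervals can be too narrow even for that error. Scaling alternatives were TMM (edgeR 4.0.16), median ratios (DESeq2 1.42.0) and totals without the 20 most abundant features, or without both actins. The ratio and its interval were tested on simulated Poisson counts. These hold no variation between cultures and follow the interval's own assumption, so the test covers the calculation only. The members and lists were chosen with earlier results of these data known. Named features were the members and the nearest identifier to each. The reference table paired 0 identifiers with symbols, so lists of other actins, thin filament genes, SRF targets and cell types were not applied.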

Additional observations from a re-analysis of the deposited data

Results flagged for a closer look

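The Chaer siRNA ratio of Actc1 had opposite signs in the 2 conditions, with a log2 ratio of -0.04 with phenylephrine and 0.06 without it. Each value sets 1 library against 1 library, and the difference between them was not tested. Both lie near the medians of all features, which were -0.03 and 0.02, and both signs depended on the scaling.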

How the results depend on the processing

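No paired analysis was possible because a replicate number that pairs libraries across groups needs 2 or more libraries in each. Each phenylephrine ratio was already taken within 1 siRNA and each siRNA ratio within 1 condition, and an additive fit over the 4 libraries was not run. Leaving out a library would remove its group. Values below are log2 ratios of RPKM + 1. For phenylephrine under Chaer siRNA, Acta1 was at 2.29, 2.28 and 2.19 and Actc1 at 1.08, 1.07 and 0.99 with TMM, median-ratio and totals without both actins. TMM set the median of all features in that comparison at 0.00, against -0.10 as deposited. Under control siRNA, Acta1 was at 2.57, 2.54, 2.41 and 2.49 and Actc1 at 1.17, 1.14, 1.01 and 1.09 with TMM, median-ratio, totals without the 20 most abundant features and totals without both actins. For Chaer siRNA with phenylephrine, Acta1 was at -0.42, -0.39 and -0.46 and Actc1 at -0.019, 0.0056 (a turned sign) and -0.061 with TMM, median-ratio and without the 20 most abundant. Without phenylephrine, Acta1 was at -0.22 and Actc1 at -0.019, a turned sign, without the 20 most abundant features, and Actc1 at 0.076 with median-ratio scaling. The difference of the effects was -0.26 and -0.24 for Acta1 with median ratios and with the 20 most abundant left out, and -0.085, -0.071 and -0.042 for Actc1 with TMM and those 2 settings. Pseudocounts of 0.1 and 5 moved none of the members' ratios beyond counting error. As a share of reads, Acta1 made up 12.05% and 15.3% of the pair with phenylephrine under Chaer and control siRNA, against 5.61% and 6.41% without it.

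At a mean of at least 20 RPKM, 62 and 73 of 4041 features passed the size rule, higher with phenylephrine under Chaer and control siRNA. In the main setting 134 and 137 of 12226 features did, 1.1% and 1.12%. The lower counts at 20 RPKM are therefore of a smaller set and do not mean a lower share. At 1.5-fold the counts were 522 and 433 of the 12226. In either direction, Chaer siRNA gave 83 with and 95 without phenylephrine of the 4041 at a mean of at least 20 RPKM. Of the 12226 it gave 433 and 463 with a pseudocount of 0.1, and 1074 and 1363 at 1.5-fold. The difference of the effects gave 11 of the 4041, and 205 and 751 of the 12226, under those settings. By Pearson correlation, the features nearest to Acta1 and Actc1 ranked 56th and 13th. A mean of at least 20 RPKM leaves fewer features to compare and 1.5-fold is a looser rule than 2-fold, so those counts shift by construction. The cause of the other shifts was not tested. Variation between cultures and the split of reads shared by the actins were not measured.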
